A study of Nicotiana benthamiana with 12 samples.

Results

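Of the 45796 genes counted in seedlings of Nicotiana benthamiana, 38 had almost no reads in wild-type (WT) plants without abscisic acid (ABA) and were present in every WT library 3 h after the hormone was given. They were chosen from the WT libraries by 2 limits: at most 3 counts summed over the 3 mock libraries, and at least 1 CPM (1 count in every 1000000 counts of the library) in each of the 3 ABA libraries. The WT values of these genes are therefore a description with no test, and the pent1 libraries, which took no part in the choice, were the ones open to a test.

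The 12 libraries came from whole seedlings of the LAB strain, a standard laboratory line of this tobacco relative, in 4 groups of 3: pent1 given 10 µM ABA, pent1 mock, WT given 10 µM ABA, and WT mock, where mock was 0.1% DMSO, the solvent. The seedlings were moved off plates 10 days after germination, spent 10 days in liquid medium and were collected 3 h after the medium was renewed with one of these additions. Which genes are altered in pent1 is not stated in the labels used here. Totals per library were 19371555 to 19678708 counts in pent1 and 18199288 to 18758918 in WT, so that 1 CPM stood for 19.4 to 19.7 reads in pent1 and 18.2 to 18.8 in WT. Genotype coincided with the table of counts, so a difference between pent1 and WT plants and one between the 2 tables, in growth or in counting, cannot be told apart.

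ABA is the plant hormone of water deficit and seed dormancy. It binds receptors of the PYR/PYL/RCAR family, which then block a group of protein phosphatases. SnRK-type kinases are thereby freed and activate transcription factors of the bZIP class at ABA-responsive promoters. Many of the best-known targets in other plants, such as late embryogenesis abundant proteins, dehydrins and oleosins, are scarce in unstressed leaves and abundant in drying seeds. No table used here pairs the IDs of this study with names or products, so the 38 genes are given by ID and no role is assigned to any of them. In RNA of whole seedlings, fewer cells with a transcript and less transcript per cell cannot be told apart.

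Near silence without ABA was common, and leaving it was rare. In WT mock, 8459 genes had at most 3 counts over the 3 libraries, and 7667 of these (90.6%) had at most 3 counts in WT ABA too. Another 792 had 4 or more counts with ABA, of which 13 reached 1 CPM in some but not every WT ABA library and 38 in each. The 38 genes made up 0.449% of the near-silent genes and 0.083% of all genes. By contrast, 30113 genes had at least 1 CPM in each WT ABA library, with a median of 12.2 CPM.

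The 38 genes together took 317 to 334 CPM of the WT ABA libraries, against 0.549 to 1.28 CPM of the WT mock libraries. In counts, this was 18109 reads over the 3 WT ABA libraries and 52 over the 3 WT mock libraries. All WT ABA libraries held reads of each of the 38 genes, whereas 9 to 17 of the genes had a read in a given WT mock library. The mean level per gene with ABA ran from 1.14 to 52.3 CPM with a median of 3.51. Above 10 CPM were 10 genes, another 20 lay between 2 and 10 CPM, and 8 lay at or under 2 CPM. CPM are not corrected for transcript length, which the tables do not hold, so this order is one of reads and not of transcript molecules. The 5 genes with most reads held 48.2% of the WT ABA reads of the group.

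**Figure D1:**
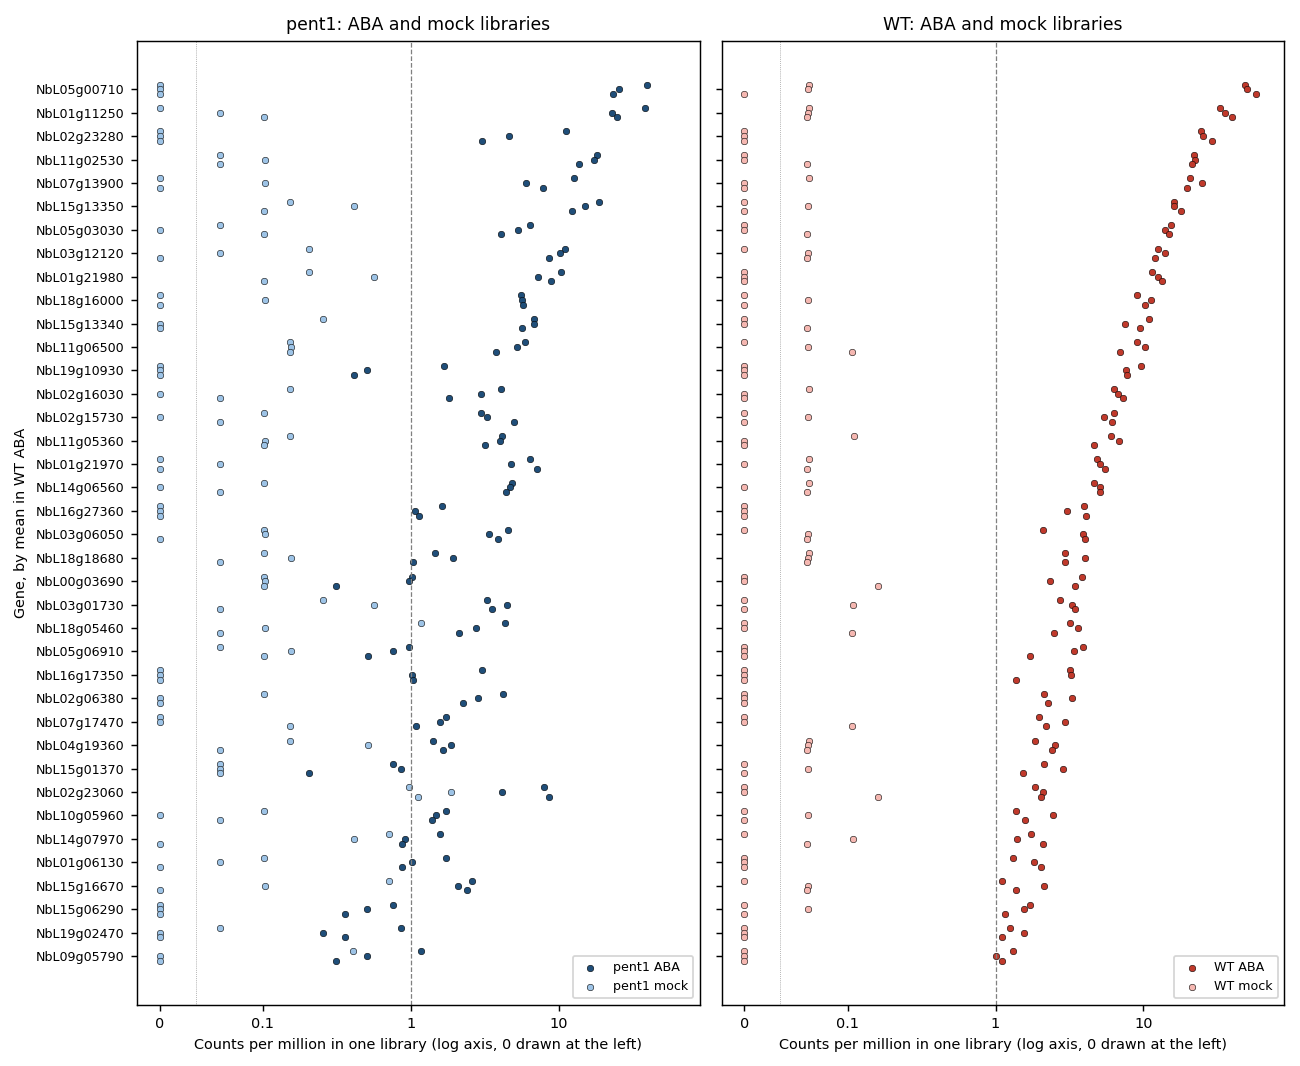
CPM of each of the 38 genes (rows, by mean in WT ABA) in every library, with pent1 on the left and WT on the right, dark points for ABA and pale points for mock, on a log axis with 0 drawn at the left and a dashed line at 1 CPM. In WT the ABA and mock points are apart in each row because the genes were chosen so. In pent1, which was not used in the choice, the ABA points lie above the mock points in 37 of 38 rows, and some mock points lie between 0.1 and 1.86 CPM.

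NbL05g00710 had the most reads of the group. In pent1 it had 780, 502 and 451 counts with ABA and none in mock. Its counts in WT were 892, 939 and 1058 with ABA, against 1, 1 and 0 in mock. The pent1 ABA libraries were thus all under the WT ABA libraries, and both mock groups were at or next to 0. In pent1, with mock set to a floor of 3 counts over the group, the gene was at least 576-fold higher with ABA (edgeR quasi-likelihood test, Benjamini-Hochberg adjusted p = 2.39e-05). The ratio of ABA to mock in WT was 1452, with a 95% counting interval of 401.5 to 11990.

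NbL01g11250 had 753, 453 and 483 counts in pent1 ABA, against 0, 1 and 2 in pent1 mock. Its counts in WT were 599, 664 and 722 with ABA, against 1, 1 and 1 in mock. The ABA libraries of the genotypes overlapped, and the ratio of ABA to mock was 561.2 in pent1 (counting interval 191.7 to 2724) and 665.0 in WT (227.2 to 3227). NbL11g02530 stood at 361, 339 and 268 counts in pent1 ABA, against 1, 2 and 1 in pent1 mock, and at 402, 418 and 388 in WT ABA, against 0, 0 and 1 in WT mock. It had the lowest adjusted p of the group in pent1 (5.51e-09, edgeR quasi-likelihood) and the tightest WT ABA replicates among the genes over 10 CPM, at 21.9 ± 0.512 CPM (SD, n = 3).

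Among the other genes over 10 CPM in WT ABA, 3 kept more than 0.7 of the WT level in pent1. NbL15g13350 reached 15.5 ± 3.17 CPM in pent1 ABA and 16.8 ± 1.13 CPM in WT ABA. NbL03g12120 reached 9.99 ± 1.22 CPM in pent1 ABA and 12.9 ± 1.05 CPM in WT ABA. NbL01g21980 reached 8.86 ± 1.55 CPM in pent1 ABA and 12.4 ± 0.919 CPM in WT ABA (SD, n = 3 in each group). In NbL03g12120 and NbL01g21980, as in NbL11g02530, every pent1 ABA library was under every WT ABA library, while in NbL15g13350 they overlapped. A full separation in this direction was found for 23.2% of all genes with at least 1 CPM in each WT ABA library, and it was not tested.

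NbL07g13900, NbL05g03030 and NbL18g16000 were separated in the same way and had ratios of pent1 ABA to WT ABA of 0.407, 0.357 and 0.556. NbL07g13900 had 250, 119 and 153 counts in pent1 ABA, against 375, 471 and 361 in WT ABA. NbL05g03030 had 127, 105 and 79 counts in pent1 ABA, against 282, 263 and 274 in WT ABA. NbL18g16000 had 110, 111 and 111 counts in pent1 ABA, against 165, 211 and 186 in WT ABA, and was the most even of the group among pent1 libraries.

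The comparison of ABA with mock in pent1 asked whether the genes near silence in WT also answered the hormone in that line. All genes were fitted on the 6 pent1 libraries, and 31 of the 38 were called higher with ABA and 0 lower, at a Benjamini-Hochberg adjusted p under 0.05 by edgeR's quasi-likelihood test. In that comparison 7.24% of 33197 genes tested were called higher and 3.84% lower. In each of the 16 fits tried, the fitted change was positive for every one of the 38 that was tested, so none was lower at an unadjusted p under 0.05 either. The lowest log2 fold change among the 31 was 2.47, against a median of 0.89 among the 2402 genes called higher and -0.01 among all genes tested. A gene with few mock reads passes the filter on low counts through its ABA libraries alone, so the number of tested members does not weigh for the response. Of the 38, 6 were not tested, and these had 29 to 51 counts over the 3 pent1 ABA libraries. NbL14g07970 was tested and not called.

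A reading free of that filter took all 38 genes. In 37 of them (97.4%) every pent1 ABA library lay above every pent1 mock library in CPM, against 9.40% of the 40318 genes with a count in pent1. The exception was NbL09g05790, with 23, 10 and 6 counts in pent1 ABA, against 8, 0 and 0 in pent1 mock. Without a filter on low counts, edgeR called 34 of the 38 (6.43% of all genes tested were called higher), and DESeq2, which tested all 38 as well, called 34 (6.55%). With the filter in place, limma-voom tested 32 of the 38 and called 31 (7.04%). A filtered fit of all 12 libraries called 37 (10.8%), but there the WT ABA reads that chose the genes carry them through the filter and enter the estimate of spread, so that number is no independent evidence of the pent1 response.

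For 3 of the 31 genes the call changed with the libraries or settings used. NbL02g23280 had 222, 91 and 59 counts in pent1 ABA and none in pent1 mock, against 445, 472 and 528 in WT ABA and none in WT mock. Its pent1 ABA libraries differed among themselves by more than those of most members, and its call (edgeR quasi-likelihood, adjusted p = 0.043) was lost when replicate 1 of pent1 mock (0.0872) or replicate 2 (0.128) or 3 (0.0541) of pent1 ABA was left out. Without pent1 ABA replicate 1, the highest, the adjusted p was 1.15e-05. The call was also lost without a filter on low counts (0.129) and with library-size scaling alone (0.0665). NbL18g05460 had 86, 54 and 41 counts in pent1 ABA, against 23, 2 and 1 in pent1 mock. Nearly all its mock reads were in replicate 1. Its call, at a log2 fold change of 2.88 (edgeR quasi-likelihood, adjusted p = 0.0484), was lost in 10 of 15 other settings. These included the fits without pent1 mock replicate 2 (0.0879) or 3 (0.064) and those without pent1 ABA replicate 1 (0.138), 2 (0.119) or 3 (0.0812), in which the log2 fold change was 2.38 to 3.07. Without pent1 mock replicate 1 the gene was called, at a log2 fold change of 5.26 (edgeR quasi-likelihood, adjusted p = 0.000161). NbL15g16670 lost its call with DESeq2 alone (adjusted p = 0.0613), and the other 28 calls were made in each of the 15 other settings that tested the gene.

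Applied to pent1, the 2 limits of the rule held for 14 of the 38 genes. Only 16 of all 45796 genes met the limits in pent1 (0.0349%), so the shared genes were 87.5% of the pent1 list and 36.8% of the WT list. The lists rest on separate libraries. The 14 included NbL05g00710, NbL01g11250, NbL02g23280, NbL07g13900, NbL05g03030 and NbL18g16000 at the high end, and NbL10g05960, with 34, 29 and 27 counts in pent1 ABA, at the low end. Their median level was 4.97 CPM in pent1 ABA and 5.56 CPM in WT ABA. These medians were taken in each group apart and do not give the change per gene. The ratio of pent1 ABA to WT ABA ran from 0.241 to 1.21 among the 14, and was over 1 only in NbL01g21970 and NbL02g06380. The 14 were also chosen by their pent1 ABA level, which favours high values there.

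The 2 genes of the pent1 list outside the 38 were well above silence in WT mock. NbL14g07120 had 43, 21 and 24 counts in pent1 ABA, against 1, 0 and 1 in pent1 mock. In WT it had 295, 348 and 336 counts with ABA, against 22, 23 and 21 in mock, so it was lower in pent1 under both treatments. NbL15g03370 had 488, 515 and 36 counts in pent1 ABA, against 0, 1 and 1 in pent1 mock, and 578, 652 and 367 in WT ABA, against 154, 122 and 42 in WT mock. Its replicate 3 was low in both ABA groups and in WT mock, and the pent1 difference was not called (edgeR quasi-likelihood, adjusted p = 0.0688).

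Another 15 genes reached 1 CPM in each pent1 ABA library but had more than 3 counts in pent1 mock. A further 5 were near silent in pent1 mock and stayed under 1 CPM in at least 1 pent1 ABA library, and 4 did neither. In 8 of those 9 genes every pent1 ABA library still lay above every pent1 mock library in CPM. Of the 40318 genes with a count in pent1, 9.40% showed this.

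Counts without ABA were higher in pent1 than in WT for most of the genes. Over the 3 libraries, 30 of 38 had more counts in pent1 mock than in WT mock, 5 had the same number and 3 had fewer. The group summed to 298 counts in pent1 mock and 52 in WT mock, a ratio of 5.43 relative to library totals. A single gene, NbL02g23060, gave 77 of these, and 221 were left without it. In 19 of the 38 (50%) the pent1 mock sum was above 3, against 8.07% of the other genes that were near silent in WT mock.

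The choice of genes by a low WT mock count itself favours a higher count in any library outside the choice, so the share was read at equal WT counts. Of the members without a WT mock count, 3 of 10 had more than 3 counts in pent1 mock, against 1.82% of 5864 other genes without one. At 1 WT mock count it was 4 of 11, against 14.7% of 1238 others, and at 2 counts 6 of 10, against 26.1% of 771. At 3 counts it was 6 of 7, against 34.7% of 548. These shares were not tested.

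Equal WT mock counts do not by themselves keep that bias out, since the members were also chosen by their WT ABA level. It was kept out of a second reading, in which genes were chosen on 2 mock and 2 ABA libraries of WT. The third library of each was then read. Leaving out replicates 1, 2 and 3 in turn, with at most 2 mock counts allowed, gave 39, 43 and 46 genes. Both limits held in the left-out libraries (at most 1 mock count, at least 1 CPM with ABA) for 33, 34 and 33 of them. Every one of the chosen genes was higher in the left-out ABA library than in the left-out mock library. The 39 genes summed to 2.20 to 10.1 CPM in the pent1 mock libraries and 1.21 CPM in the left-out WT mock library. For the 43 genes it was 2.40 to 7.15 CPM in pent1 mock and 2.15 CPM in WT mock, and for the 46 genes 3.78 to 8.07 CPM in pent1 mock and 2.40 CPM in WT mock. Each pent1 mock library was thus above the left-out WT library, in 1 case by little.

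**Figure D2:**
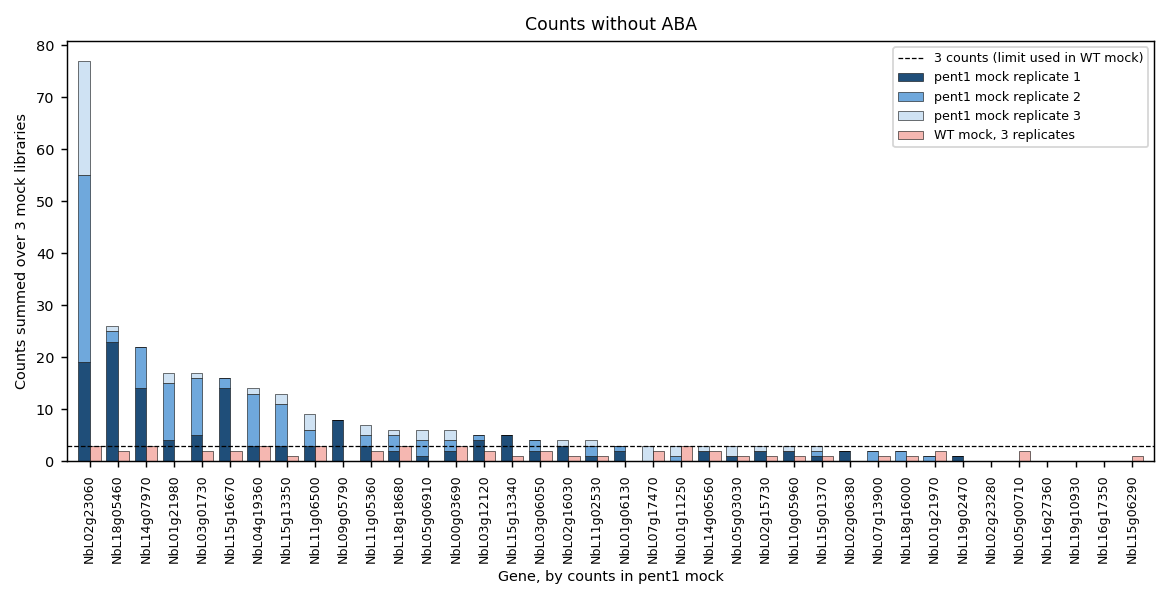
Counts of each gene summed over the 3 mock libraries, with pent1 stacked by replicate (blue, left bar) and WT (pink, right bar), and a dashed line at the 3 counts allowed in WT. NbL02g23060 reaches 77 counts in pent1 over all 3 replicates, whereas the next bars, of 26 and 22 counts, come mostly from replicate 1.

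The reads in pent1 mock were uneven between replicates. They numbered 132, 114 and 52 in replicates 1, 2 and 3, and more than 3 counts were found for 9, 6 and 1 of the genes. NbL02g23060 was the gene over 3 counts in replicate 3, with 19, 36 and 22 counts in pent1 mock. NbL14g07970 had 14, 8 and 0 counts in pent1 mock, NbL15g16670 had 14, 2 and 0, and NbL09g05790 had 8, 0 and 0. In NbL01g21980 and NbL03g01730 replicate 2 was the highest, with 4, 11 and 2 counts and 5, 11 and 1 counts. Whether the ABA response and the mock reads of single pent1 libraries have a common source was not tested.

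NbL02g23060 was the gene that differed most in the direction of pent1. It had 156, 81 and 167 counts in pent1 ABA, against 19, 36 and 22 in pent1 mock. In WT it had 34, 39 and 37 counts with ABA, against 0, 0 and 3 in mock. Each pent1 group was above its WT counterpart without overlap. The pent1 log2 fold change was 2.47 (SE 0.34, edgeR quasi-likelihood, adjusted p = 0.000853), the smallest among the 31 called.

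With ABA, most of the genes stood lower in pent1 than in WT. The ratio of mean CPM in pent1 ABA to that in WT ABA had a median of 0.646 and ran from 0.103 to 3.46. It was under 1 in 32 of 38 genes (84.2%), against 51.1% of the 30113 genes with at least 1 CPM in each WT ABA library, whose median ratio was 0.993. Below 0.5 were 12 of 38 (31.6%), against 3.00% of those genes. Every pent1 ABA library was under every WT ABA library for 22 of the 38, where 23.2% of the 30113 genes showed this, and above for 1, where 20.4% did. The WT ABA libraries took part in the choice, and no test of these differences was made. With the WT level read in the left-out library, the median ratios were 0.606, 0.660 and 0.667.

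**Figure D3:**
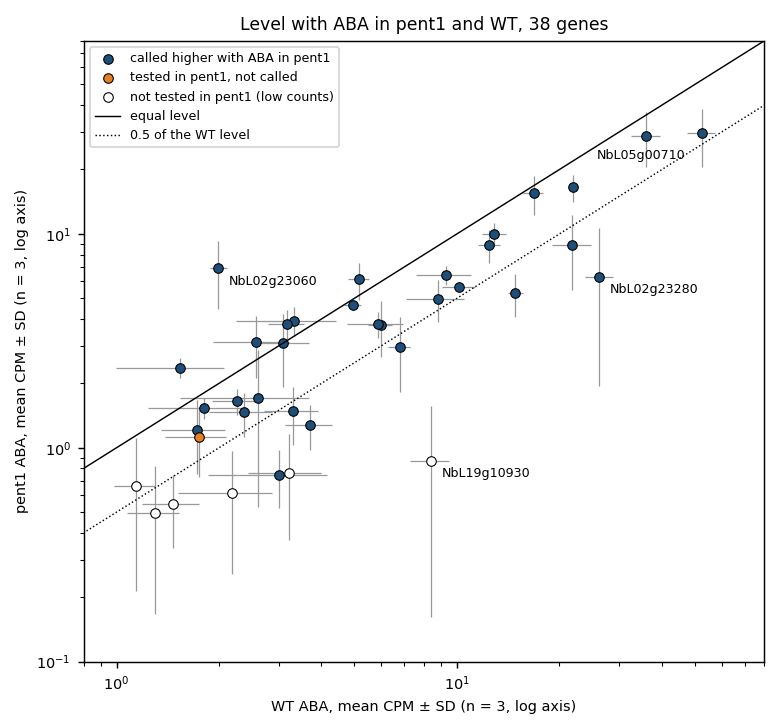
Mean CPM with ABA in pent1 (vertical) against WT (horizontal), both on log axes, with SD over 3 libraries as bars, a solid line at equal level and a dotted line at 0.5 of the WT level. Filled blue points were called higher with ABA in pent1, the orange point was tested and not called, and white points were not tested. Most points lie between the lines or under them, and NbL02g23060 is the one well above.

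The lowest ratio belonged to NbL19g10930. It had 33, 10 and 8 counts in pent1 ABA and none in pent1 mock, against 176, 144 and 142 in WT ABA and none in WT mock. Its pent1 level was 0.103 of that in WT, and with the floor for mock the gene was at least 16.9-fold higher with ABA in pent1 and at least 155-fold higher in WT. It was under the filter on low counts in pent1, and was called without that filter (edgeR quasi-likelihood, adjusted p = 0.00698) and by DESeq2 (adjusted p = 3.15e-05).

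Ratios of 0.238 to 0.345 were found in genes with and without mock reads. NbL00g03690 had 20, 19 and 6 counts in pent1 ABA, against 70, 44 and 63 in WT ABA. NbL05g06910 had 19, 15 and 10 counts in pent1 ABA, against 71, 64 and 31 in WT ABA. In NbL15g01370 the counts were 15, 17 and 4 in pent1 ABA, against 39, 54 and 28 in WT ABA. None of these 3 overlapped between the genotypes. NbL16g27360 was without mock reads in either genotype, and had 32, 21 and 22 counts in pent1 ABA, against 72, 57 and 75 in WT ABA. It was the lowest of the 14 genes shared by the lists after NbL02g23280.

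Besides NbL02g23060, 5 genes had a ratio over 1, and in each of them the libraries of the genotypes overlapped. NbL15g16670 had 51, 41 and 47 counts in pent1 ABA, against 20, 40 and 25 in WT ABA. For NbL02g06380 the counts were 83, 56 and 44 in pent1 ABA, against 39, 62 and 41 in WT ABA. The ratios of NbL01g21970, NbL03g01730 and NbL03g06050 were 1.18 to 1.19. Over the 38 genes the levels with ABA in pent1 and WT had a Spearman correlation of 0.799, while the level in WT and the ratio had one of -0.118. Both are descriptions over genes that share libraries.

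The pent1 ABA libraries were less even than those of WT, and 1 of them led. The median coefficient of variation per gene was 0.290 in pent1 ABA and 0.155 in WT ABA, where counting alone would give medians of 0.122 and 0.124. It was larger in pent1 for 29 of 38 genes. Larger spread in pent1 ABA was not particular to them. Over all genes with at least 20 reads in a pair of libraries, chi-square per degree of freedom was 6.64 to 16.5 in pent1 ABA. In WT ABA it was 2.03 to 4.61. The limit of 1 CPM in each WT ABA library also favours even WT levels, and pent1 had no such limit. Replicate 1 was the highest pent1 ABA library for 29 of 38 genes (76.3%), against 32.0% of the genes with at least 1 CPM in each pent1 ABA library. With TMM-scaled libraries it led in 30, against 33.9%. Replicate 3 was the lowest for 24. In WT ABA, replicates 1, 2 and 3 were the highest for 8, 18 and 12 genes.

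**Figure D4:**
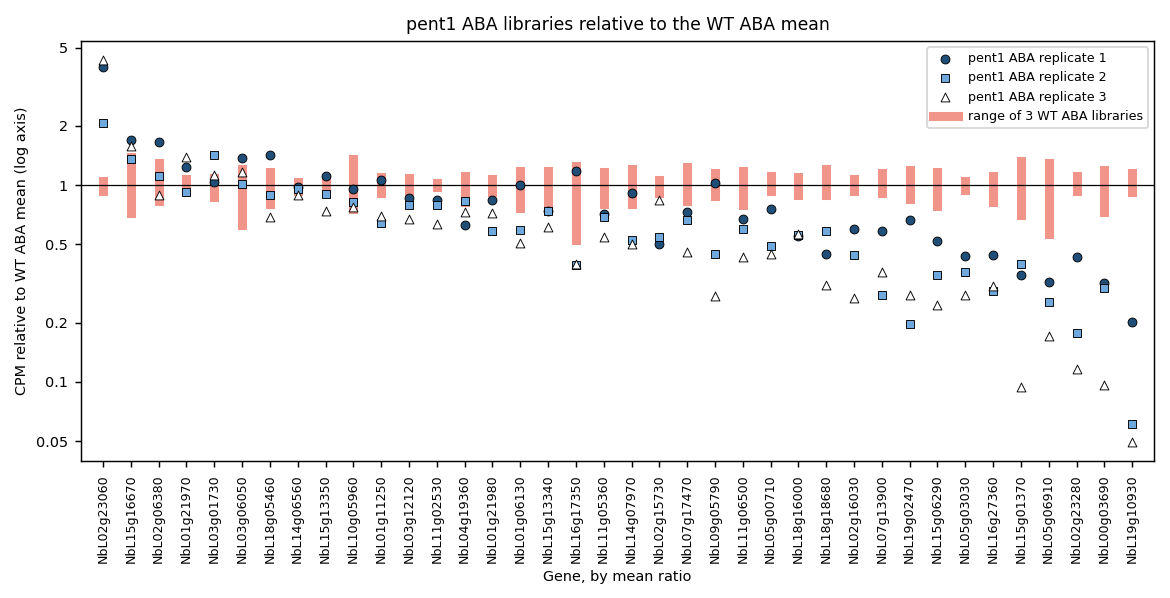
CPM of each gene in each pent1 ABA library, divided by the mean of the 3 WT ABA libraries, on a log axis, with genes ordered by their mean ratio and the range of the WT ABA libraries as pink bars. Replicate 1 (dark circles) is the highest of the pent1 libraries in 29 of 38 genes, and the spread among replicates widens toward the genes with low ratios.

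Sums over the group followed the same order, at 256, 187 and 178 CPM in pent1 ABA replicates 1, 2 and 3, against 317, 333 and 334 CPM in WT ABA. The median ratio to the WT ABA mean was 0.746, 0.589 and 0.528 in the 3 pent1 libraries, so replicate 1 was nearest to WT. Without replicate 1 the median ratio over the 38 genes was 0.561.

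The nearest comparison is with genes that ABA raised strongly in WT from a level above the limit. By summed counts, 87 genes were at least 16-fold higher in WT ABA, had at least 1 CPM in each WT ABA library and had 4 to 711 counts in WT mock, with a median of 18. This set was drawn up after the values were seen. Of the 87, 82 were called higher with ABA in pent1 (94.3%). Their median ratio of pent1 ABA to WT ABA was 0.716, with 80.5% under 1 and 21.8% under 0.5. Pent1 ABA replicate 1 was the highest of its group for 52 of them (59.8%). Their ratio of pent1 mock to WT mock had a median of 1.79, and it was over 1 for 70 of 87. The 38 genes thus lay on the same side as the 87 in each of these measures, and no difference between the sets was tested. Both sets were chosen by high ABA and low mock counts in the same WT libraries. That choice itself favours ratios of pent1 to WT under 1 with ABA and over 1 in mock.

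Genes at the limits show how the choice fell. Just inside the limit of 1 CPM were NbL09g05790, with 24, 19 and 20 counts in WT ABA, NbL15g16670 with 20, 40 and 25, and NbL19g02470 with 23, 29 and 20. Just outside were NbL07g02720, with 21, 18 and 20 counts in WT ABA, NbL13g22660 with 17, 20 and 22, and NbL15g11330 with 16, 29 and 16. The nearest genes beyond the limit on mock had 4 WT mock counts. NbL19g01050 had 86, 117 and 121 counts in WT ABA, and NbL04g18620 had 52, 41 and 46. NbL18g01120 had 84, 65 and 137 counts in pent1 ABA, against 87, 9 and 9 in pent1 mock, and 147, 181 and 182 in WT ABA, against 2, 1 and 1 in WT mock. With the high count in pent1 mock replicate 1, it was not called in pent1 (edgeR quasi-likelihood, adjusted p = 0.365).

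Some members stood side by side in the order of IDs. The 38 were spread over 15 of the 20 ID prefixes, with at most 5 in one. Pairs with adjoining IDs were found in 2 cases. NbL01g21970 had 126, 94 and 139 counts in pent1 ABA, against 0, 1 and 0 in pent1 mock, and 88, 96 and 101 in WT ABA, against 1, 0 and 1 in WT mock. Its partner NbL01g21980 had 204, 143 and 173 counts in pent1 ABA, against 4, 11 and 2 in pent1 mock, and 209, 235 and 242 in WT ABA, against 0, 0 and 0 in WT mock. With ABA, the pent1 libraries of the first overlapped those of WT in CPM, and those of the second were all under WT. Over the 3 pent1 mock libraries the first had 1 count and the second 17, of which 11 were in replicate 2. No difference between the partners was tested.

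In the second pair, NbL15g13340 had 134, 134 and 110 counts in pent1 ABA, against 5, 0 and 0 in pent1 mock, and 198, 140 and 173 in WT ABA, against 0, 0 and 1 in WT mock. NbL15g13350 had 369, 299 and 241 counts in pent1 ABA, against 3, 8 and 2 in pent1 mock, and 295, 303 and 330 in WT ABA, against 0, 1 and 0 in WT mock. On the outer sides both pairs were flanked by genes with counts under both treatments and no call in pent1. NbL15g13330 had 606 counts over the 3 pent1 ABA libraries and 674 over pent1 mock, and NbL15g13360 had 1161 and 1106. Beside the first pair, NbL01g21990 had 63 and 70. NbL01g21960 had 110 and 68 (edgeR quasi-likelihood, adjusted p = 0.0835), and its counts in WT were 114 with ABA and 62 in mock. Near-identical copies can share reads under some ways of counting, and the way used here is not given, so the split of reads within a pair is uncertain.

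Over all 38 genes, 72 other genes stood next to a member in the order of IDs. Of these, 49 were tested in pent1, where 5 were called higher with ABA and 2 lower, against 7.24% and 3.84% of all genes tested. Near silence in WT mock was found for 17 of the 72 (23.6%), against 18.5% of all genes. The neighbours NbL07g13910, beside NbL07g13900, and NbL09g05800, beside NbL09g05790, were close to the limits themselves. Both are named after their values were seen. NbL07g13910 had 994 counts in pent1 ABA, against 13 in pent1 mock, and 1165 in WT ABA, against 9 in WT mock, over 3 libraries each. Its pent1 log2 fold change was 6.29 (edgeR quasi-likelihood). NbL09g05800 had 166 counts in pent1 ABA, against 35 in pent1 mock, and 108 in WT ABA, against 8 in WT mock. Its pent1 log2 fold change was 2.32 (edgeR quasi-likelihood). Whether neighbouring IDs overlap on the genome is not known from the tables.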

How the data were processed

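RNA of whole seedlings was sequenced in 12 libraries, in 4 groups of 3 described in the design text as biologically independent. The authors deposited whole-number read counts per gene, without normalization, in a table per genotype. Per the labels' protocols the library kit was strand-specific, and the tools named, per the submitters' processing notes, were STAR, cutadapt, FastQC and DESeq2. The counter, genome build, annotation and treatment of multiply mapped reads were not given in the sources used.

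CPM were computed from column totals. ABA was compared with mock in pent1 on its 6 libraries with edgeR 4.0.16 in R 4.3.3 (TMM, filterByExpr with a count minimum of 10, robust quasi-likelihood, Benjamini-Hochberg adjustment over all genes tested, threshold 0.05), after a trial on simulated data. The trial raised only genes with a mean of at least 1 CPM before the change, so it does not speak to genes near silence in mock. Standard errors are those implied by the F statistic. Replicate pairs differed by more than sampling noise (chi-square per degree of freedom 2.03 to 16.5), so each library counted as a replicate. For folds written "at least", a group with no count was given 3 counts over its 3 libraries. Intervals are exact, at 95%, and cover counting error only. Alternatives were other scaling factors, DESeq2 1.42.0, limma-voom (limma 3.58.1), other filters and limits, a replicate block, all 12 libraries in one fit, and leaving out each library.

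The genes, the naming rule and the alternatives were chosen with earlier results of these data known. Genes named are the 10 with most WT ABA reads, the 6 highest and 6 lowest by the ratio of pent1 ABA to WT ABA, the 5 with most pent1 mock reads, those at the limits, and those with adjoining IDs. Other genes are named where a short list or a single example calls for them. Lists of ABA pathway genes were not used, since no table pairs IDs with names.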

Additional observations from a re-analysis of the deposited data

How the results depend on the processing

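The size of the group depended on its limits: 10 genes had no count at all in WT mock, 25 had at least 2 CPM in each WT ABA library, 53 met a limit of 0.5 CPM and 56 a limit of 6 mock counts. TMM-scaled CPM gave 38 again, and leaving out 1 WT library gave 39 to 53, since fewer libraries make the limits easier to meet. The limits held in pent1 for 14 of the 38, and for 14 to 21 with 1 pent1 library left out. The number called higher with ABA in pent1 was 31 of 32 tested, where 7.24% of all genes tested were called higher. Over the other tools, filters and scalings it ran from 29 to 37, with 29 to 38 of the genes tested. It was 29 of 29 with a filter of 1 CPM in 3 libraries and 29 of 32 with library-size scaling alone. The 37 came with all 12 libraries, where the WT reads that chose the genes enter the filter. With 1 library left out it was 29 to 32, of 32 to 34 tested. Of the 10 genes without a WT mock count, 7 passed the filter on low counts and were tested, and all 7 were called. Genes with few mock reads pass these filters through their pent1 ABA libraries, so such shares of tested members do not weigh for the response. Without a filter edgeR called 34 of the 38. In the other fits for which the share was taken, 6.43% to 10.8% of all genes tested were called higher. The median ratio of pent1 ABA to WT ABA was 0.654 with TMM-scaled CPM and 0.561 to 0.713 with 1 library left out. Without NbL05g00710, the gene with most reads, the group summed to 276 CPM in WT ABA in place of 328. Replicate numbers did not pair the pent1 libraries (correlations of deviations -0.0554, -0.0072 and 0.085 for the same-numbered mock and ABA libraries), and with the replicate number as a block 32 of the genes were called, NbL14g07970 being the one added (edgeR quasi-likelihood, adjusted p = 0.0492). At these depths 1 count was worth about 0.05 CPM, so mock levels of single genes rest on a few reads.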

Other observations

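The reverse pattern was met by 1 gene in WT. NbL03g15040 had 2, 5 and 2 counts in pent1 ABA, against 42, 14 and 35 in pent1 mock (edgeR quasi-likelihood, adjusted p = 0.00124). In WT it had 3, 0 and 0 counts with ABA, against 26, 38 and 27 in mock. No gene had at most 3 counts over pent1 ABA and at least 1 CPM in each pent1 mock library. In WT, another 13 genes near silent in mock reached 1 CPM in some but not every ABA library.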
